A study of Mus musculus with 14 samples.

Results

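Peaks of pSMAD1/5/9, SMAD4 and H3K27ac were looked up at 10 genes of BMP, GDF and activin ligands in cultured mouse muscle stem cells (MuSCs), namely Bmp1, Bmp2, Bmp4, Bmp5, Bmp6, Bmp7, Gdf5, Gdf6, Mstn and Inhba. These are 10 of the 21757 protein-coding genes that GENCODE places outside the mitochondrial genome on GRCm39. A peak belonged to a gene when it overlapped the canonical transcript or the 20 kb on either side, and its position is given as the distance of its summit from the transcription start site (TSS). Signal is given as a rank within its own list, with 1 for the strongest peak. The name of the group does not hold for every gene in it, since Bmp1 encodes a secreted metalloprotease and not a ligand, and it is therefore described apart from the other 9.

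The cells came from muscles of female mice, 9 weeks old, of the strain C57BL/6N(Tg(Pax7-EGFP)Tajb), whose green fluorescent reporter follows Pax7 and was used to sort MuSCs. All cells were cultured in hypoxia, at 3% oxygen. They were starved of serum for 6 h with 200 ng/mL of the soluble receptor BMPR-1A-Fc, which binds free BMPs. They then received either 100 ng/mL BMP6 or the vehicle (4 mM HCl and 0.1% BSA) for 1 h. CUT&Tag, in which an antibody directs a transposase to chromatin, was made from 100000 fixed cells per library, with 2 biological replicates for each antibody and condition. The authors joined both replicates into 1 list per antibody and condition, keeping peaks below an irreproducible discovery rate (IDR) of 0.05. The 6 lists hold 7339 (BMP6) and 949 (vehicle) peaks of pSMAD1/5/9, 12860 and 8577 peaks of SMAD4, and 78050 and 67790 peaks of H3K27ac. With 1 list per condition there is no replicate error between conditions and no test was made, so a gene that is in one list and missing from the other is described and not called different. A missing peak means that none passed the IDR threshold. In these bulk samples, fewer cells with a bound site and less binding per cell cannot be told apart.

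BMPs and GDFs are secreted dimers that bind pairs of type I and type II receptor kinases. The activated receptor phosphorylates SMAD1, SMAD5 and SMAD9, which join SMAD4 and bind DNA in the nucleus. Myostatin, encoded by Mstn, and activin A, a dimer of the Inhba product, signal through SMAD2 and SMAD3 instead, which also use SMAD4, and SMAD2 and SMAD3 were not assayed. H3K27ac is a histone acetylation found at active promoters and enhancers. In muscle, BMP signals hold MuSCs from differentiating, and myostatin limits the growth of muscle.

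At 9 of the 10 genes, no pSMAD1/5/9 peak was listed in either condition. Absence was also common elsewhere, since 29.1% of all protein-coding genes had such a peak after BMP6 and 5.97% in vehicle. The sequences below show 5 of the SMAD sites: the stronger pSMAD1/5/9 site of Bmp1, the Bmp1 site with SMAD4 in both conditions, the SMAD4 site at Bmp4, and both SMAD4 sites of Bmp6. Each is the window of 200 bases around the summit after BMP6, read from GRCm39 on the strand of the gene. Capitals mark matches, on either strand, to GTCT (the short SMAD element), GGAGCC or GGCGCC (the GC-rich element of BMP-responsive SMADs), CAGCTG (an E-box) and the AP-1 motif TGAGTCA or TGACTCA. The SMAD palindrome GTCTAGAC holds GTCT on both strands and is in none of these windows.
Bmp1 intron 6, pSMAD1/5/9, chr14:70742977-70743176, minus strand: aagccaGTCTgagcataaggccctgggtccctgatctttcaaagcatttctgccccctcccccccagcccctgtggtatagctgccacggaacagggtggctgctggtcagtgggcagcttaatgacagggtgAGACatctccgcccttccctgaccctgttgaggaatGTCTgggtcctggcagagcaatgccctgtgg
Bmp1 intron 1, SMAD4, chr14:70752793-70752992, minus strand: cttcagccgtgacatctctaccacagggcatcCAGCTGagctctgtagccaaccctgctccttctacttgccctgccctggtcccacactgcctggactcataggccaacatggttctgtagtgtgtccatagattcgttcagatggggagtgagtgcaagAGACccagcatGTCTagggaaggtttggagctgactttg
Bmp4 intron 1, SMAD4, chr14:46624770-46624969, minus strand: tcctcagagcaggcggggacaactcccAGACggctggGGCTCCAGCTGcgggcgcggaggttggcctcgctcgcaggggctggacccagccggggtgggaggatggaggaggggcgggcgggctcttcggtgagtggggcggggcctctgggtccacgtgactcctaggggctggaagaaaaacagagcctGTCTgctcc
Bmp6 upstream, SMAD4, chr13:38522173-38522372, plus strand: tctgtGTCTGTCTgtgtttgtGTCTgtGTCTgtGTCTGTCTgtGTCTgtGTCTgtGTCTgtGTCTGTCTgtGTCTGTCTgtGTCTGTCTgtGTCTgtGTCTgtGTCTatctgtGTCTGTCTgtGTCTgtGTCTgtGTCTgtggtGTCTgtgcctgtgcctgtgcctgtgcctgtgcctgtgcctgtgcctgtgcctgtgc
Bmp6 intron 1, SMAD4, chr13:38594536-38594735, plus strand: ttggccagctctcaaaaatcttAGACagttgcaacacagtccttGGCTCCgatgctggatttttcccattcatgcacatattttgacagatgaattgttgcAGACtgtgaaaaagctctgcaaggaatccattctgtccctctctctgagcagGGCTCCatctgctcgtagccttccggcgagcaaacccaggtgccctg

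After BMP6, 1 of the 10 genes had a pSMAD1/5/9 peak (Bmp1, with 2 peaks), and among all protein-coding genes the share was 29.1%. In vehicle none had one, where the share of all genes was 5.97%. Thus 1 gene had pSMAD1/5/9 after BMP6 and not in vehicle, and 23.5% of all genes had this pattern. SMAD4 peaks were listed at 4 of the 10 after BMP6 (Bmp1, Bmp4, Bmp6 and Gdf6, 8 peaks in all), near the 39.3% of all genes. In vehicle 2 of the 10 had SMAD4 (Bmp1 and Bmp6, 3 peaks), against 30.8% of all genes. Bmp4 and Gdf6 had SMAD4 after BMP6 and not in vehicle, a pattern of 12.8% of all genes, and no member had it in vehicle alone, against 4.24%. H3K27ac peaks were listed at 8 of the 10 after BMP6 and at 7 in vehicle, where the shares of all genes were 74.8% and 73.4%. By the number of genes with any peak, the group therefore lies near the background for SMAD4 after BMP6 and for H3K27ac. The counts of 10 genes are too small to set it apart for pSMAD1/5/9. The median number of H3K27ac peaks per gene was lower than for all genes, at 1.5 against 3 after BMP6 and 1 against 2 in vehicle. So were the H3K27ac densities and TSS counts given below.

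**Figure D1:**
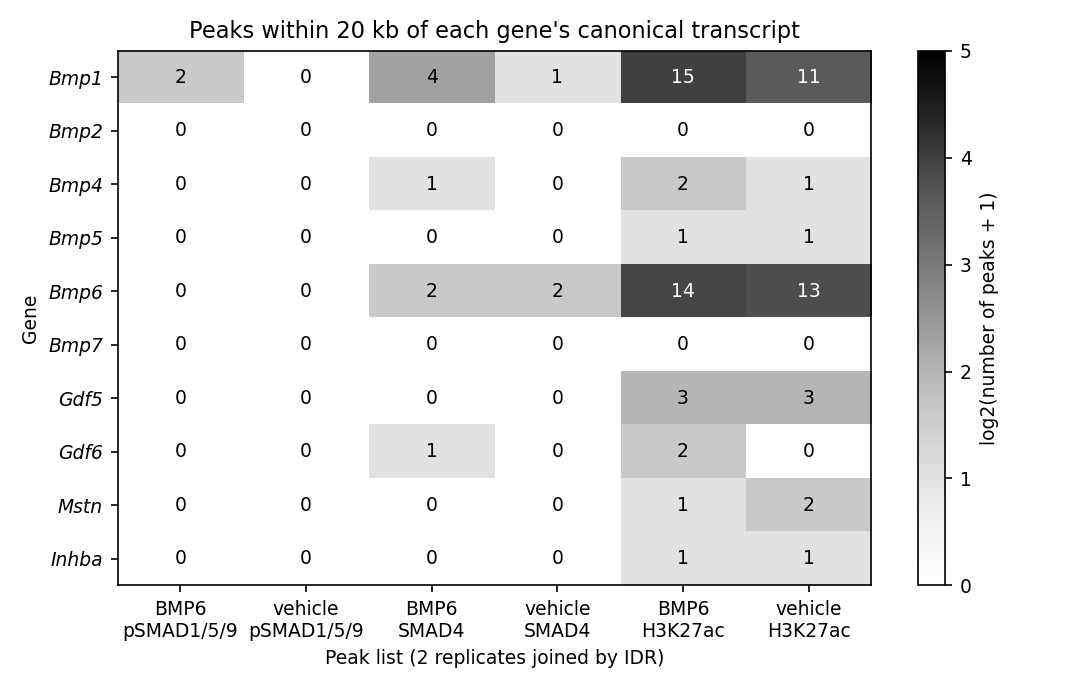
Number of peaks within 20 kb of each gene's canonical transcript (rows, genes; columns, the 6 lists; shading, log2 of the number plus 1). The only pSMAD1/5/9 peaks are the 2 at Bmp1 after BMP6, and Bmp2 and Bmp7 have no peak in any list.

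The genes and flanks together span 863 kb. Per 100 kb of that, the pSMAD1/5/9 list of BMP6-stimulated cells held 0.232 peaks, and over the regions of all protein-coding genes it held 0.587. For SMAD4 the densities were 0.927 and 0.973 after BMP6, and 0.348 and 0.661 in vehicle. For H3K27ac they were 4.52 and 5.30 after BMP6, and 3.71 and 4.65 in vehicle. Much of this comes from 1 gene. Without Bmp1, the other 9 genes held no pSMAD1/5/9 peak, 4 SMAD4 peaks after BMP6 (0.515 per 100 kb) and 24 H3K27ac peaks (3.09 per 100 kb).

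Bmp1 (ENSMUSG00000022098.12) is transcribed from the minus strand of chromosome 14 (70711998 to 70757751) and has 20 exons. Its product, also known as procollagen C-proteinase, cleaves fibrillar procollagens and the BMP antagonist chordin. The stronger of its pSMAD1/5/9 peaks after BMP6 lay in intron 6, from 70742911 to 70743210, with the summit 14674 bp downstream of the TSS. It ranked 3832 of 7339, in the middle of the list. By the signal of a single replicate its rank was 2693 in one and 5967 in the other, so its place depended on the replicate. The weaker peak lay at the promoter, from 70757761 to 70758210, with its summit 87 bp before the TSS. At rank 6931 of 7339 it was among the weakest of the list. Its ranks by single replicate, 6290 and 6995, were both low. The −log10 of the IDR was 1.62 and 1.40 for these peaks, so neither passed a stricter IDR of 0.01.

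The promoter of Bmp1 is not a single start. GENCODE gives 77 transcripts of Bmp1, of which 30 begin upstream of the canonical TSS, the farthest by 427 bp. The summit of the promoter pSMAD1/5/9 peak lies in an exon of 17 of them, in 5′ untranslated sequence, for which reason its bases are not shown. The window of 200 bases at this summit was GC-rich, at 79.5%, above that of 98.8% of the pSMAD1/5/9 peaks, and held none of the motifs searched. The whole peak, however, held 9 matches to GTCT and 1 to the GC-rich element. The whole SMAD4 peak at the promoter held 10 and 2.

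SMAD4 had 4 peaks at Bmp1 after BMP6, and both pSMAD1/5/9 peaks overlapped one of them. The strongest, from 70742728 to 70743674, spanned from intron 6 through exon 7 into intron 7 and ranked 2109 of 12860, the upper 16.4% of its list. By single replicate it ranked 1678 and 3667, at 13.0% and 28.5%. Its summit was 184 bp from that of the intronic pSMAD1/5/9 peak, which it contained whole. The promoter SMAD4 peak, from 70757578 to 70758204, covered the TSS and ranked 4289, with its summit 50 bp from that of pSMAD1/5/9. Neither the intron 6 site nor the promoter had a SMAD4 peak in vehicle. Over the whole list, 57.2% of the pSMAD1/5/9 peaks after BMP6 overlapped a SMAD4 peak of vehicle and 73.2% one of BMP6.

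The other SMAD4 sites of Bmp1 carried no pSMAD1/5/9. A peak in intron 1, from 70752826 to 70753254, was the single Bmp1 site with SMAD4 in both conditions, and its summits after BMP6 and in vehicle were 6 bp apart, at 4858 bp and 4864 bp from the TSS. It ranked 6469 of 12860 after BMP6 and 7040 of 8577 in vehicle, that is at 50.3% and 82.1% of the lists. The ranks by single replicate were 6677 and 5734 after BMP6 and 7783 and 5406 in vehicle, so at 51.9% and 44.6% and at 90.7% and 63.0% of the lists. The lists differ in length, so here and below neither a rank nor a place in percent is a level of binding, and no change between conditions is read from them. The last peak, 65740 bp downstream of the Bmp1 TSS, lay inside Phyhip and 2422 bp from the TSS of Phyhip, and was the only one of the 8 SMAD4 peaks after BMP6 whose nearest TSS belonged to another gene.

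Bmp1 was also the most acetylated of the 10 genes. H3K27ac had 15 peaks there after BMP6 and 11 in vehicle, which covered 49.5% and 41.5% of the gene and its flanks. The TSS of Bmp1 was the closest one for 5 of the 15 and 7 of the 11. The strongest of these peaks ran over 12530 bp after BMP6 and 9600 bp in vehicle, covered the TSS, and ranked 355 of 78050 and 521 of 67790, in the upper 0.455% and 0.769% of the lists. By single replicate it ranked 1382 and 352 after BMP6 and 517 and 754 in vehicle, so 1 replicate moved its rank after BMP6 to 1.77% of the list. All 4 SMAD4 sites lay in H3K27ac peaks of BMP6-stimulated cells, and all but the one in Phyhip lay in H3K27ac peaks of vehicle.

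**Figure D2:**
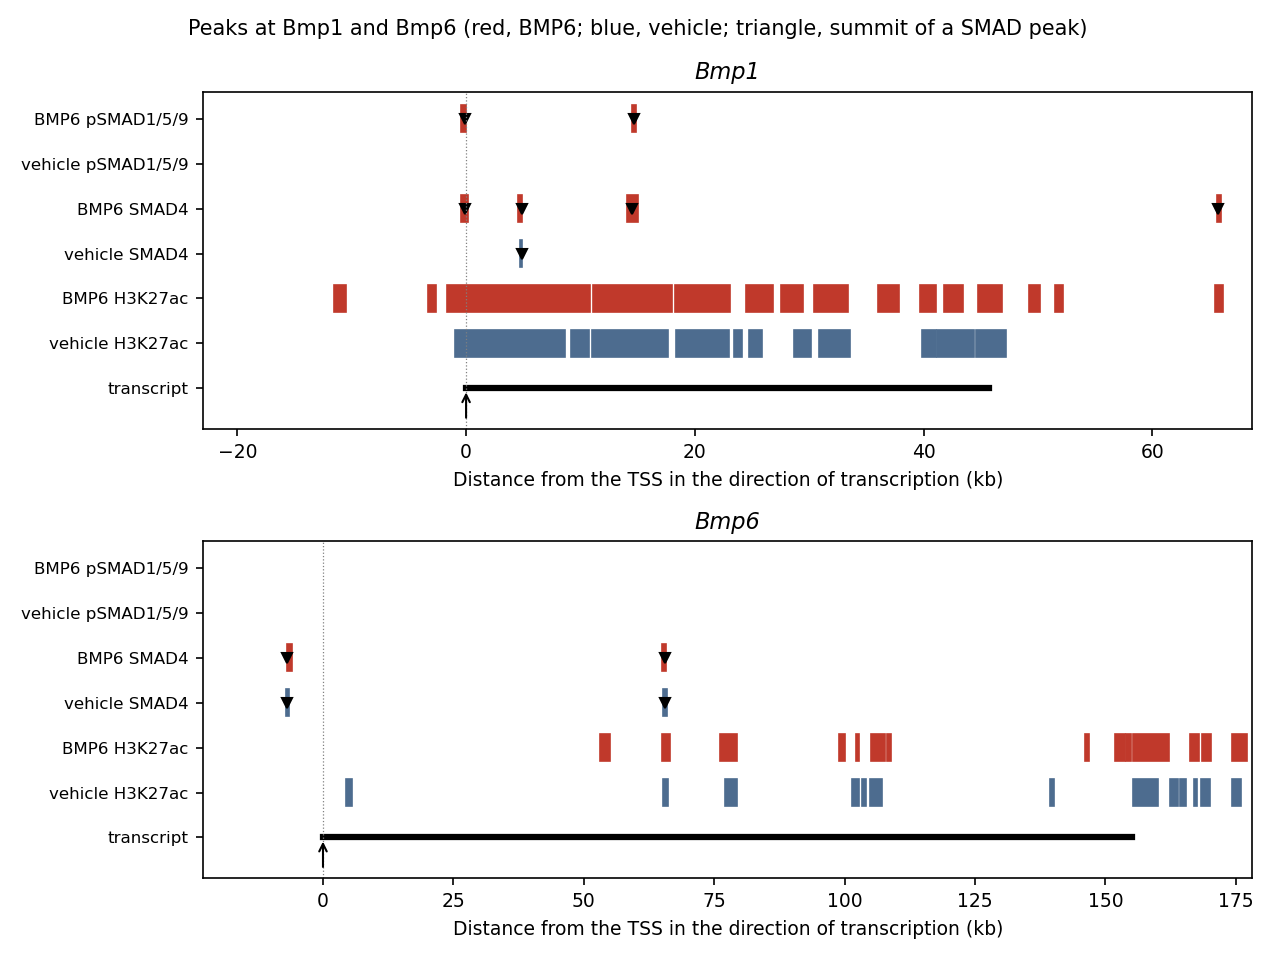
Peaks of the 6 lists at Bmp1 and Bmp6 by distance from the TSS (kb, in the direction of transcription; red, BMP6; blue, vehicle; black bar, canonical transcript; triangles, summits of SMAD peaks). At Bmp1 the pSMAD1/5/9 peaks fall on 2 of the 4 SMAD4 sites, and at Bmp6 both SMAD4 sites are present in each condition without pSMAD1/5/9. In the whole list, 42.7% of the SMAD4 peaks after BMP6 overlapped pSMAD1/5/9.

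Bmp6 (ENSMUSG00000039004.8) encodes the ligand used for stimulation. It occupies 38529083 to 38684278 of chromosome 13, plus strand, and at 155 kb it is longer than 94.3% of the protein-coding genes. No pSMAD1/5/9 peak was listed within 20 kb of it, and the nearest one after BMP6 was 678 kb upstream of its TSS, closest to the TSS of Rreb1. It had 2 SMAD4 sites, and both were present in BMP6-stimulated and vehicle cells. Neither trait is particular to Bmp6. Of all SMAD4 peaks after BMP6, 45.5% overlapped a SMAD4 peak of vehicle and 42.7% a pSMAD1/5/9 peak of BMP6. Bmp6 was the only gene of the 10 with SMAD4 at IDR 0.01 in both conditions. The share of all genes with this was not computed, so nothing particular to Bmp6 is read from it.

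The upstream site ran from 38522089 to 38523080 after BMP6 and from 38522056 to 38522583 in vehicle, with summits 6810 bp and 6870 bp before the TSS, 60 bp apart. It ranked 1746 of 12860 after BMP6, the highest of any SMAD peak at the 10 genes, and 3271 of 8577 in vehicle. By single replicate the ranks were 1566 and 2355 after BMP6 (12.2% and 18.3% of the list) and 3423 and 2966 in vehicle (39.9% and 34.6%). The site had no H3K27ac peak in either condition, while 95.7% of all SMAD4 peaks after BMP6 and 96.4% in vehicle overlapped one. GENCODE places it in introns of the long noncoding RNA Gm47990.

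The sequence of the upstream site is a tandem repeat. Its window after BMP6, printed above, held 24 matches to GTCT, where the median SMAD4 window held 2, and 38 of the 12860 windows held as many. The whole peak held 87 matches in 992 bp. In vehicle the window held 34, which 4 of 8577 windows reached. Windows with many GTCT were rare. Of the SMAD4 peaks after BMP6, 125 (0.972%) had at least 10 GTCT in the window, a number chosen after these values were seen. Of those, 64.0% overlapped an H3K27ac peak and 8.80% a pSMAD1/5/9 peak of BMP6, against 96.0% and 43.0% of the other SMAD4 peaks. The upstream site of Bmp6 is itself among the 125, and the difference was not tested. Whether the other windows are repeats was not examined, nor was read mapping in the Bmp6 repeat.

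The intronic site of Bmp6 lay in intron 1, from 38594161 to 38594919 after BMP6 and from 38594311 to 38594952 in vehicle, with summits 65553 bp and 65594 bp downstream of the TSS. It ranked 3058 of 12860 and 2128 of 8577, at 23.8% and 24.8% of the lists. By single replicate the ranks after BMP6 were 2319 and 5986 (18.0% and 46.5%), far apart. Unlike the upstream site it lay within H3K27ac in both conditions, and its window held 2 matches to the GC-rich element and 2 to GTCT. The AP-1 motif occurred 2 times in the whole peak after BMP6, outside the printed window.

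H3K27ac had 14 peaks at Bmp6 after BMP6 and 13 in vehicle, and covered 13.9% and 10.6% of the region. Few of these were near the start of the gene. The nearest to the TSS was 53.1 kb downstream after BMP6, and in vehicle 4.42 kb downstream, a weak peak that ranked 67162 of 67790. For 3 of the 14 and 3 of the 13, the TSS of Bmp6 was the closest one, and the others were closest to Txndc5, the next gene downstream, whose name was chosen after these values were seen. The closest TSS does not assign a peak in so long a gene. The strongest after BMP6, at rank 10051 of 78050 (12.9%), lay in intron 1 of Bmp6, 77337 bp from the TSS of Txndc5. In vehicle the strongest, at rank 9822 of 67790 (14.5%), lay downstream of the end of Bmp6.

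Bmp4 (ENSMUSG00000021835.17), at 46620250 to 46628126 of chromosome 14 (minus strand), encodes a BMP known to keep MuSCs from differentiating. It had no pSMAD1/5/9 peak, and the nearest one after BMP6 was 491 kb upstream, at Samd4. A single SMAD4 peak was listed after BMP6, from 46624777 to 46625023 in intron 1, with its summit 3256 bp downstream of the canonical TSS, and none in vehicle. It was weak, at rank 11749 of 12860 and at 11866 and 10744 by single replicate, and did not pass an IDR of 0.01. Its place is close to another start of the gene. GENCODE gives 14 Bmp4 transcripts, and the summit was 108 bp from the closest TSS of the basic set. No exon of Bmp4 lay under the SMAD4 peak. The H3K27ac peak there had its summit 2 bp from such a TSS after BMP6 and 190 bp in vehicle. This H3K27ac peak spanned 2940 bp after BMP6 (rank 23052 of 78050, 29.5% of the list) and 1100 bp in vehicle (rank 42717 of 67790, 63.0%). By single replicate it ranked 24769 and 21372 after BMP6 and 41654 and 44789 in vehicle. An antisense long noncoding RNA, Gm15222, overlaps the same bases. The canonical TSS of Bmp4 lay in no H3K27ac peak.

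Gdf6 (ENSMUSG00000051279.4), at 9844350 to 9862354 of chromosome 4 (plus strand), encodes a GDF known for its part in joint and skull formation. Its single SMAD4 peak after BMP6, from 9859675 to 9859984, lay within the coding sequence of exon 2, 15415 bp from the TSS. It ranked 12694 of 12860 and is among the weakest peaks of the list, also by single replicate (12402 and 12735). It did not pass an IDR of 0.01. No H3K27ac peak overlapped it. H3K27ac peaks were listed at Gdf6 after BMP6 and not in vehicle, 1 over the TSS and 1 whose summit lay 2446 bp upstream. Both were weak, at ranks 68987 and 74898 of 78050, and the nearest H3K27ac peak of vehicle was 73.1 kb upstream.

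**Figure D3:**
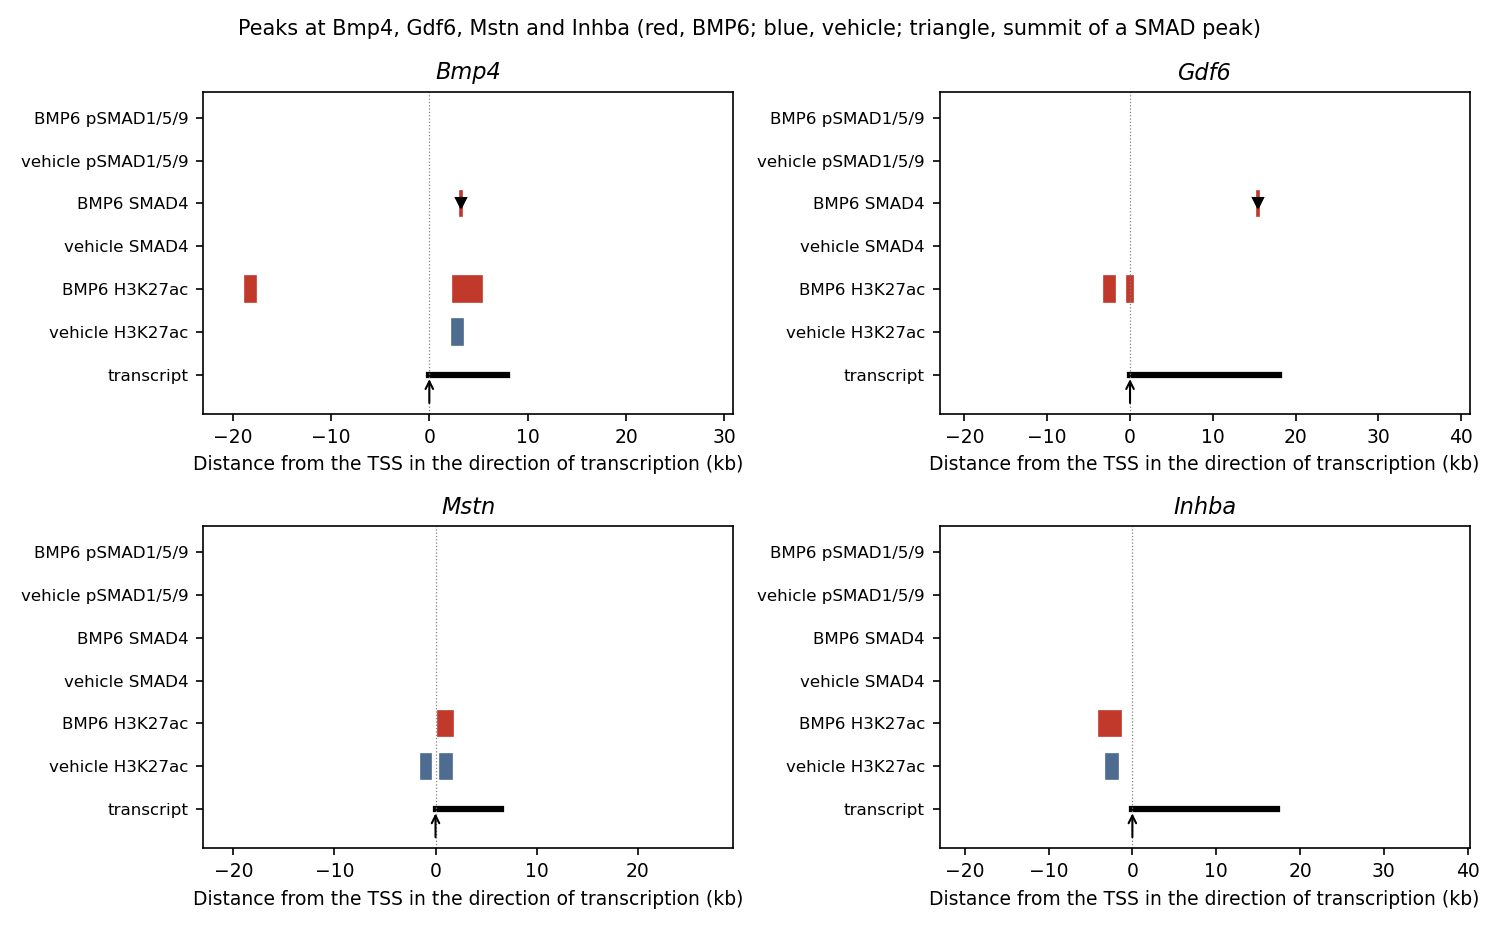
Peaks of the 6 lists at Bmp4, Gdf6, Mstn and Inhba by distance from the canonical TSS (kb, in the direction of transcription; red, BMP6; blue, vehicle; black bar, canonical transcript; triangles, summits of SMAD peaks). SMAD4 is listed at Bmp4 and Gdf6 after BMP6, and Mstn and Inhba carry H3K27ac near the TSS and no SMAD peak.

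Mstn (ENSMUSG00000026100.8), on chromosome 1 from 53100799 to 53107238, and Inhba (ENSMUSG00000041324.16), on chromosome 13 from 16188983 to 16206206, had no peak of pSMAD1/5/9 or SMAD4. Both had H3K27ac near their start in each condition. At Mstn the peak after BMP6 began 222 bp downstream of the TSS, and in vehicle 1 peak lay on each side of it, with the TSS itself in none. They ranked 54158 of 78050 after BMP6, and 52845 and 53008 of 67790 in vehicle. At Inhba 1 peak lay upstream of the canonical TSS, with its summit 1860 bp away after BMP6 and 1980 bp in vehicle, and 687 bp and 567 bp from the closest TSS of the basic transcripts. It ranked 33260 of 78050 and 28809 of 67790, at 42.6% and 42.5% of the lists. By single replicate it ranked 33058 and 33498 after BMP6 and 25069 and 34272 in vehicle. The nearest SMAD4 peak was 150 kb from the TSS of Inhba and 217 kb from that of Mstn after BMP6.

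The remaining ligand genes, Bmp2, Bmp7, Bmp5 and Gdf5, showed no SMAD peak, and they differed in H3K27ac. At Bmp2 (ENSMUSG00000027358.8, chromosome 2 from 133394079 to 133404816) and Bmp7 (ENSMUSG00000008999.9, chromosome 2 from 172709805 to 172782410) none of the 6 lists had a peak within 20 kb. The nearest H3K27ac peak was 114 kb from the TSS of Bmp2 after BMP6 and 117 kb in vehicle. For Bmp7 it was 58.8 kb upstream in both conditions, at the start of Rae1. The nearest pSMAD1/5/9 peak of BMP6-stimulated cells was 1289 kb from the TSS of Bmp2 and 117 kb from that of Bmp7. Bmp2 and Bmp7 are known for their roles in bone and kidney formation, respectively.

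Bmp5 (ENSMUSG00000032179.9, chromosome 9 from 75682638 to 75807592) is 125 kb long and had 1 H3K27ac peak in each condition, downstream of its end and closest to the TSS of Hmgcll1. Gdf5 (ENSMUSG00000038259.5, chromosome 2 from 155782943 to 155787287), a gene of joint formation, had 3 H3K27ac peaks in each condition. The strongest ranked 9488 of 78050 and 8036 of 67790, in the upper 12.2% and 11.9%, and lay 11023 bp and 11027 bp upstream of the Gdf5 TSS. It was however at the start of another gene, Cep250, 116 bp and 112 bp from its TSS. None of the H3K27ac peaks at Bmp5 or Gdf5 had the ligand's own TSS as the closest. The names of Rae1, Hmgcll1 and Cep250 were chosen after these values were seen.

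H3K27ac at the start of the genes was counted at a single base, the canonical TSS. It lay in an H3K27ac peak for 2 of the 10 genes after BMP6 (Bmp1 and Gdf6) and for 1 in vehicle (Bmp1), against 51.4% and 49.5% of all protein-coding genes. Other annotated starts were not counted. At Bmp4 and Inhba the H3K27ac summits lay closer to such a start than to the canonical TSS. The counts of 10 genes are too small to set the group apart. By bases covered after BMP6, Bmp1 was followed by Bmp6, Gdf5 (9.69%) and Bmp4 (8.33%). In vehicle Gdf5 and Bmp6 each had 10.6% covered, and Bmp4, at 2.30%, was below Mstn (4.74%) and Inhba (2.62%). Inhba, Gdf6, Mstn and Bmp5 had at most 4.74% covered in either condition. Covered length came from 1 list per condition, so the differences between conditions carry no error.

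**Figure D4:**
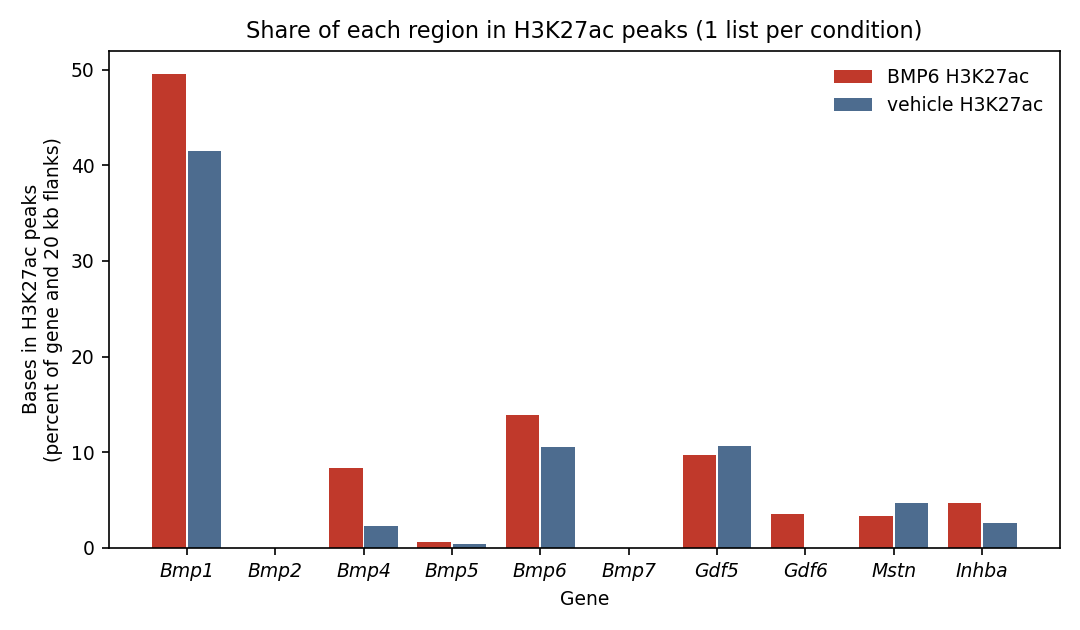
Share of each gene and its 20 kb flanks that lies in H3K27ac peaks (percent; red, BMP6; blue, vehicle; 1 list per condition, without error bars). Bmp1 stands at 49.5% and 41.5%, every other gene is at or below 13.9%, and Bmp2 and Bmp7 are at 0.

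Of the 13 SMAD peaks at the 10 genes, 7 passed an IDR of 0.01, all of them SMAD4 and all at Bmp1 or Bmp6. In the whole lists after BMP6, 3674 of 7339 pSMAD1/5/9 peaks and 6322 of 12860 SMAD4 peaks passed it. In vehicle 3575 of 8577 SMAD4 peaks did. With so few peaks at the 10 genes, nothing about the group is read from this count. The spread between replicates was wide for some peaks. In the plot of replicate ranks the intronic pSMAD1/5/9 peak of Bmp1 spans 36.7% to 81.3% of its list, and its promoter SMAD4 peak 31.8% to 36.9%. The replicate values carry no number, so they are not matched between lists.

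**Figure D5:**
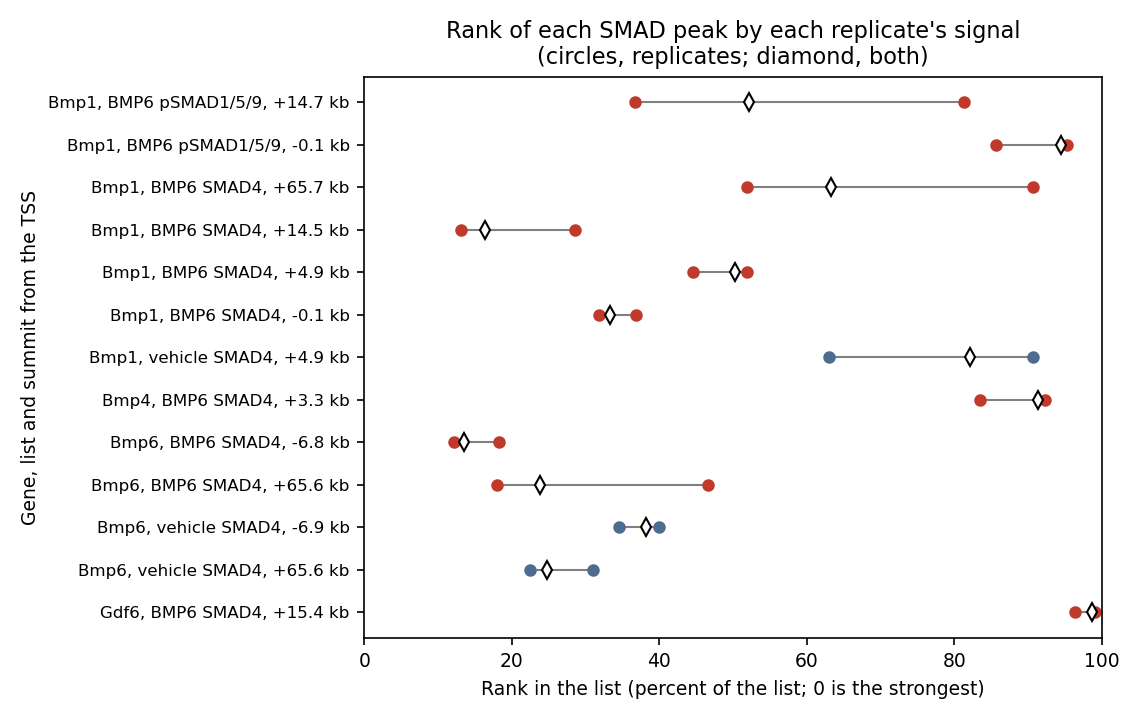
Rank of each of the 13 SMAD peaks at the 10 genes as a percent of its list (0 is the strongest peak), by each replicate's signal (circles; red, BMP6; blue, vehicle) and by both (diamonds). After BMP6, the upstream SMAD4 site of Bmp6 and the intron 6 SMAD4 site of Bmp1 rank highest by both replicates joined. Those at Bmp4 and Gdf6 lie at the weak end in both replicates. In vehicle the upstream site of Bmp6 is at 38.1% and its intron 1 site at 24.8%.

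The motifs in these windows were common ones. GTCT was in 81.0% of the pSMAD1/5/9 windows and 83.0% of the SMAD4 windows after BMP6, and the GC-rich element in 30.2% and 28.4%. At the 10 genes the GC-rich element was in neither pSMAD1/5/9 window and in the SMAD4 windows of Bmp4, the intron of Bmp6 and Gdf6. GTCT was in every SMAD window of the group except those at the promoter of Bmp1, where it lay elsewhere in the peaks. CAGCTG was in the SMAD4 windows of Bmp1 intron 1, Bmp4 and Gdf6, and 29.1% of all SMAD4 windows after BMP6 held it. In the Bmp4 window the last base of GGCTCC is also the first of CAGCTG. The AP-1 motif was in the vehicle window of the Bmp6 intron alone, and was in 14.8% of all vehicle SMAD4 windows. GTCTAGAC was in no SMAD peak of the group and in 1.26% of the SMAD4 windows after BMP6.

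The other ligands of the superfamily, with the BMP1 relatives Tll1 and Tll2, are 26 genes. Of these 8 (30.8%) had a pSMAD1/5/9 peak after BMP6 and 2 (7.69%) in vehicle, and 11 (42.3%) had SMAD4 after BMP6 and 7 (26.9%) in vehicle, close to the shares of all genes. The 8 were Tgfb1, Tgfb2, Tgfb3, Gdf9, Gdf11, Inha, Lefty2 and Amh, with 16 peaks. For 11 of the 16 the closest TSS was that of a neighbouring gene, and Tgfb2 and Tgfb3 alone had pSMAD1/5/9 peaks closest to their own TSS. At Tgfb2 the stronger of 2 ranked 1345, with its summit 9319 bp upstream, and at Tgfb3 the strongest closest to its own TSS ranked 4022. At IDR 0.01, 9 of the 16 peaks were left, at 6 of the 8 genes, and 3674 of the 7339 peaks of the whole list. Neither of the 2 peaks at the 10 genes above was left, which are too few to compare. The strongest of the 16 lay at Inha and ranked 279, but was 134 bp from the TSS of Obsl1.

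By presence or absence in the 6 lists, the 10 genes fell into 6 patterns. Bmp5, Gdf5, Mstn and Inhba, with H3K27ac in both conditions and no SMAD, shared theirs with the largest number, 5874 genes. Bmp2 and Bmp7 shared the empty pattern with 5260, and Bmp1 shared its pattern with 3347. The pattern of Bmp4 was that of 1686 genes and the pattern of Bmp6 that of 1218. Gdf6, with SMAD4 and H3K27ac after BMP6 and no peak in vehicle, had the rarest, of 18 genes. None of the Gdf6 peaks behind this pattern passed an IDR of 0.01. Each count includes the member itself.

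The labelled cell type was checked by the TSS of markers in H3K27ac peaks. All 8 markers of MuSCs and myoblasts (Pax7, Myf5, Myod1, Cdh15, Itga7, Vcam1, Sdc4 and Des) had it in both conditions, and none of 4 blood cell markers did. Of 4 endothelial markers Tek had it in both conditions, and of 4 fibro-adipogenic markers Cd34 had it in vehicle alone. Of 4 myofibre markers Ckm, Acta1 and Myh1 had it in both. The part of other cells in the peaks described here was not tested.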

How the data were processed

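CUT&Tag lists of peaks for pSMAD1/5/9, SMAD4 and H3K27ac in BMP6-stimulated and vehicle MuSCs were used, each from 2 biological replicates. Of 14 samples 12 entered the 6 lists. Groups follow the antibody and treatment in the labels, and 2 libraries made with no primary antibody were not used here.

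Per the methods, the authors brought the libraries of an antibody to the same number of reads, aligned these to GRCm39 with Bowtie2 (2.5.4 in the submitters' processing notes), called peaks per replicate with JAMM and joined replicates with IDR. Subsampling and joining mean that a list holds what both replicates share at that depth. The deposited signal is a score without fixed range, the sum of both replicates' values, and was used only as a rank within its list. The authors' lists give the IDR as −log10. The deposited summit is an offset in bp. No list gives the reads under a peak, whose depth is therefore unknown, and precision is limited by having 2 replicates.

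Positions were made 1-based. Canonical transcripts came from GENCODE M39, and peaks were assigned with an overlap of at least 1 bp to the gene and 20 kb on either side. Motifs were searched in windows of 200 bp around summits. Python 3.11.15, numpy 2.4.6, pandas 2.3.3, pysam 0.24.0, samtools 1.23.1 and matplotlib 3.10.9 were used, and overlaps, ranks and motif searches were tested on simulated data. The genes named are the 10 members, the other ligands with a pSMAD1/5/9 peak after BMP6, and neighbours whose TSS is closest to a SMAD peak of a member (Phyhip). Other neighbours and overlapping noncoding RNAs (Txndc5, Rae1, Hmgcll1, Cep250, Rreb1, Samd4, Obsl1, Gm47990 and Gm15222) fall outside this rule and were chosen after their values were seen. Members, lists of genes and markers were chosen with earlier results of these data known. Alternatives covered the IDR threshold, the region, the transcripts, the assignment, the overlap and single replicates.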

Additional observations from a re-analysis of the deposited data

How the results depend on the processing

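Bmp1 remained the only gene with a pSMAD1/5/9 peak under every setting of the region, the transcripts and the assignment. At an IDR of 0.01 it was lost, which left 0 members, 0 pSMAD1/5/9 peaks and 0 members with the peak after BMP6 alone. At that IDR the members with SMAD4 were 2 after BMP6 (Bmp1 and Bmp6, 5 peaks) and 1 in vehicle (Bmp6), and 1 had SMAD4 after BMP6 alone (Bmp1 in place of Bmp4 and Gdf6). H3K27ac then had 24 peaks after BMP6 and 19 in vehicle. With flanks of 50 kb, SMAD4 in vehicle had 5 peaks and H3K27ac 61 and 50. With no flank, pSMAD1/5/9 had 1 peak after BMP6, and H3K27ac had 23 peaks at 5 members after BMP6 and 20 at 4 in vehicle. In the proximal region, pSMAD1/5/9 and SMAD4 each had 1 peak after BMP6, both at Bmp1, which was also the 1 member with SMAD4 after BMP6 alone. SMAD4 in vehicle had 0 peaks at 0 members, and H3K27ac had 4 peaks at 4 members after BMP6 and 3 at 2 in vehicle. Where the closest TSS had to be the member's own, H3K27ac had 14 peaks in each condition. The shares of all protein-coding genes were not recomputed under these settings. Whether other genes lose or gain peaks to the same degree was therefore not tested. Of 105 recomputed counts 76 were within 1.5 times the reported count. Counts of 0 that stayed at 0 are among the 76, so this number does not measure stability. The shares of overlapping peaks rest on 2 and 8 peaks, too few to judge their stability (95% Clopper-Pearson intervals 15.8% to 100% and 8.52% to 75.5%). With an overlap of 50% of both peaks, 1 of 2 pSMAD1/5/9 peaks overlapped SMAD4 and 2 of 8 SMAD4 peaks overlapped SMAD4 of vehicle. Of 81 recomputed ranks 17 moved by more than 1 SD of the 2 replicate ranks. The replicate ranks are themselves among the 81, so a wide spread between them hides a move. This count is therefore no measure of stability. No paired analysis was possible because no result comes from a test and the replicate columns carry no number. The summit of a single replicate was not run. A peak near the IDR threshold at a depth the lists do not give may be missing from a list by little.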
